A study of Mus musculus with 30 samples.

Results

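Pou5f1 (which encodes Oct4), Sox2, Nanog and Sall4, with the long noncoding gene Sox2ot that surrounds Sox2, were followed through nascent RNA libraries of mouse embryonic stem cells. The 5 genes were taken by symbol from the gene tables. The washout count table lists 55291 genes and holds all 5, of which 4 have counts and Sox2 has 0 in every library. The time-course gene tables list 21859 genes and hold 4 of the 5, with no row for Sox2ot. The cells were E14 embryonic stem cells, an established mouse line, grown without feeders in serum with LIF, 3 µM of the GSK inhibitor CHIR99021 and 1 µM of a MEK inhibitor. Newly made RNA was labelled for 5 min with 4-thiouridine and sequenced (TT-seq), so reads of introns are included.

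SPT16 is a subunit of the histone chaperone FACT. Per the labels, the untagged cells carry osTIR1, the receptor through which auxin degrades a degron, and the SPT16-AID cells carry in addition a mini-AID degron with V5 at the C terminus of SPT16. The auxin 3-indole-acetic acid (IAA) was given at 500 nM and ethanol (EtOH) was the vehicle. Over time, 22 libraries were made for 11 groups of 2. Untagged cells were taken at 0 h and given IAA for 3, 6 or 12 h, and SPT16-AID cells were taken at 0 h and given either EtOH or IAA for the same times. The washout has 8 libraries of SPT16-AID cells given IAA or EtOH for 12 h and then fresh medium for 24 h. It covers 2 independently targeted lines (10E and 11D), and each line and treatment has 2 libraries, numbered Rep1 and Rep2. The time-course groups rest on the sample titles, since the tag and treatment fields of many of those libraries contradict their titles and the treatment protocol gives 24 h.

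Oct4, a POU-domain factor, and Sox2, an HMG-box factor, bind side by side at many enhancers and promoters of embryonic stem cells and recruit coactivators there. Nanog, a homeodomain factor, and Sall4, a zinc finger factor, bind many of the same sites, and all 4 factors help to hold the pluripotent state and regulate their own genes. Sox2ot is a long noncoding transcript made from the same strand as Sox2, and Sox2 lies inside its gene body. FACT helps RNA polymerase pass nucleosomes and puts histones back behind it.

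Promoter windows of 3 members are printed because the factors are known to regulate their own genes. RefSeq (build GRCm38.p6) gave a window from 250 bases before to 50 after the start for 3 of the 5 genes, Pou5f1, Sox2 and Nanog. Capitals mark matches, on either strand, to the octamer ATGCAAAT or its shorter form ATGCAAA (Oct4 and other POU factors), to the Sox core CATTGT, to the joined Sox and Oct motif (CATTGT, any base, then ATGCA), to TATAAA or to the GC box GGGCGG. The joined motif contains CATTGT and can overlap ATGCAAA, and ATGCAAAT contains ATGCAAA. The windows lie on the plus strand at chr17:35505782-35506081 (Pou5f1), chr3:34649745-34650044 (Sox2) and chr6:122707239-122707538 (Nanog).
Pou5f1: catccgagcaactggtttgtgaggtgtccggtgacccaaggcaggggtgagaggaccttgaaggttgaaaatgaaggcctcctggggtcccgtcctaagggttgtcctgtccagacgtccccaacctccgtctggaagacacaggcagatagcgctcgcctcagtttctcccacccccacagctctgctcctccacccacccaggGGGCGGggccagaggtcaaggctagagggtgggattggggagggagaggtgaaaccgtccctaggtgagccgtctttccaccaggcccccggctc
Sox2: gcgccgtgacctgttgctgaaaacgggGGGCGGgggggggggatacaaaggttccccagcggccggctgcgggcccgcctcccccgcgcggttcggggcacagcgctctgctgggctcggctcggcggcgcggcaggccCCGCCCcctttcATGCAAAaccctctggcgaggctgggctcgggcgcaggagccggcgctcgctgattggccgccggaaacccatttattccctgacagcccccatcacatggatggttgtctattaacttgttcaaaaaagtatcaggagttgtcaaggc
Nanog: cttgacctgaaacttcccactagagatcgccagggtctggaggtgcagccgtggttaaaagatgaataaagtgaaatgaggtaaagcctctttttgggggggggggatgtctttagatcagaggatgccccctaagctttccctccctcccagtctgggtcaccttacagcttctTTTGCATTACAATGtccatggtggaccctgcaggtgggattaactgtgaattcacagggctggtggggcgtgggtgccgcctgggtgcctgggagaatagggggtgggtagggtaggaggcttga
The Nanog window holds the joined motif on the minus strand at −73 to −62 from the annotated start, which counts as 0. That motif was found in 9 of 32851 RefSeq promoter windows of the same length (0.0274%), and both RefSeq windows of Nanog are among the 9. The Sox2 window holds ATGCAAA at −99 to −93 and the GC box 2 times, at −223 to −218 and −111 to −106. The printed Pou5f1 window holds the GC box at −45 to −40 and none of the Oct or Sox motifs, while a second RefSeq window of Pou5f1, not printed, holds CATTGT at −158 to −153. ATGCAAA was found in 4.63%, CATTGT in 12.6%, ATGCAAAT in 1.74%, TATAAA in 13.6% and GGGCGG in 35.7% of all windows. A match describes letters only, and no binding was measured here.

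In the counts the 5 genes lie (mm10) at chr17:35506018-35510772 on the plus strand (Pou5f1, 4755 bases), chr3:34650405-34652461 plus (Sox2, 2057 bases), chr3:34104270-34682619 plus (Sox2ot, 578350 bases), chr6:122707489-122714633 plus (Nanog, 7145 bases) and chr2:168748332-168767943 minus (Sall4, 19612 bases). Each position is that of the GENCODE M21 annotation. Sox2ot is annotated there as a processed transcript and the other 4 as protein coding. Every base of Sox2 also belongs to Sox2ot on the same strand, and Sox2 was counted at 0 in all 8 washout libraries, so that table says nothing about the level of Sox2. The RefSeq start of Sox2 lies upstream of the counted start, so pairs from the front of Sox2, and read-through beyond its end, may be among the Sox2ot counts, which was not tested. Genes on the opposite strand overlap Pou5f1 (Gm19553) and Sall4 (Gm14261), and the counting used strand. Sox2ot also spans genes on the opposite strand, with at most 12 counts in a library (Gm42693). Further same-strand genes inside it, such as Gm42692, had 0 counts. As for Sox2, pairs in a stretch shared on the same strand were counted for neither gene, so their levels are not known.

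The washout libraries held 6547992 to 16554314 counts. A set of 6 loci with more than 1% of counts each took 7.12% to 11.4% of the EtOH counts and 29.9% to 40.7% of the IAA counts, so the scaling between the treatments matters, and values are CPM (counts scaled to a common library size) after TMM scaling, which sets aside genes with extreme ratios. Of 8 markers of embryonic stem cells all 8 passed the low-count filter, and their summed level was 1962 to 3419 CPM in EtOH and 2226 to 2478 CPM in IAA libraries. These 8 include the members Pou5f1, Nanog and Sall4. Most of the sum is Esrrb, with a mean of 1753 CPM in EtOH and 1464 CPM in IAA libraries. Markers of fibroblasts summed to at most 1.32 CPM in EtOH and 1.77 CPM in IAA libraries, and those of mesoderm, with Mesp1 at 0 counts, to at most 4.02 and 6.67 CPM. Markers of neural cells, with Sox1 at 0 counts, summed to 7.19 to 29.3 CPM in EtOH and 14.5 to 18.3 CPM in IAA. Sox1 had mean counts of 119 to 165 in the authors' deposited time-course tables. Its 0 in the washout thus may not be its level, which was not tested. Those of trophoblast summed to 16.0 to 23.0 CPM in EtOH and 21.7 to 23.5 CPM in IAA. Formative and primed markers were at 150 to 195 CPM in EtOH and 211 to 259 CPM in IAA libraries, and primitive endoderm markers at 8.97 to 12.1 and 15.1 to 16.5 CPM. In both of these lists the ranges of the treatments did not overlap. Of all single tested genes, 11.8% also lay above EtOH in all IAA libraries. The sums depend on the TMM scaling and on a few genes, and the single markers are given below. The part of these markers in the results on the members was not tested. In bulk libraries fewer cells that transcribe a gene and less transcription per cell cannot be told apart.

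The targeted gene is Supt16, but the degron acts on its protein. Supt16 RNA was 77.5 ± 14.7 CPM in EtOH and 112 ± 16.7 CPM in IAA libraries (SD, n = 4 each, log2 fold change 0.53, edgeR FDR 0.0658). Ssrp1, the other FACT subunit, was 37.6 ± 3.55 and 43.0 ± 3.88 CPM (FDR 0.412). Neither passed in that test, although Supt16 passed with DESeq2 (FDR 0.032) and without the 11D IAA Rep2 library (FDR 0.0459), and loss of the protein was not measured in these libraries.

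The washout asks what transcription looks like a day after IAA was removed. Of the 4 counted members, Sox2ot was higher in IAA libraries and passed the test, whereas Nanog, Sall4 and Pou5f1 did not pass. Nanog lay lower in every IAA library than in any EtOH library, Sall4 lay higher on average with overlapping libraries, and Pou5f1 differed least.

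Sox2ot was at 117 and 78.6 CPM in the EtOH libraries of line 10E (Rep1, Rep2) and at 124 and 72.0 CPM in those of line 11D. In the IAA libraries it was at 194 and 194 CPM in 10E and at 148 and 147 CPM in 11D. All 4 IAA libraries lay above all 4 EtOH libraries, and within EtOH both Rep1 libraries lay above both Rep2 libraries. The means were 97.9 ± 26.3 CPM in EtOH and 171 ± 26.8 CPM in IAA (SD, n = 4 each), a log2 fold change of 0.80 ± 0.21 (SE) by edgeR's quasi-likelihood test, FDR 0.0216. Over all 15110 genes tested, 8.83% were called higher and 7.6% lower, and 91.5% of genes had a lower log2 fold change than Sox2ot. The call was lost without the 10E EtOH Rep2 library (FDR 0.0657) or without the 10E IAA Rep1 library (FDR 0.069).

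Nanog was at 147 and 130 CPM in the EtOH libraries of line 10E and at 143 and 138 CPM in those of 11D. In IAA libraries it was at 101 and 124 CPM in 10E and at 90.1 and 101 CPM in 11D. The highest IAA library (10E Rep2) lay just under the lowest EtOH library (10E Rep2), and the other 3 lay well below. The means were 139 ± 7.2 and 104 ± 14.4 CPM (SD, n = 4 each), a log2 fold change of −0.42 ± 0.15 with an edgeR FDR of 0.0801, which did not pass. Of all tested genes, 11.3% lay below in all IAA libraries as Nanog did, and 11.8% lay above in all of them as Sox2ot did.

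Sall4 was at 276 and 136 CPM in the EtOH libraries of 10E and at 239 and 111 CPM in those of 11D. Its IAA libraries were at 355 and 287 CPM in 10E and at 238 and 265 CPM in 11D. The groups overlapped: the 2 EtOH Rep1 libraries lay among the IAA libraries, and the 2 EtOH Rep2 libraries lay far below all others. The means were 191 ± 79.7 and 286 ± 50 CPM (SD, n = 4 each), a log2 fold change of 0.59 ± 0.27 with an edgeR FDR of 0.158.

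Pou5f1 was at 150 and 114 CPM in the EtOH libraries of 10E and at 120 and 98.6 CPM in those of 11D. In IAA libraries it was at 133 and 109 CPM in 10E and at 91.5 and 103 CPM in 11D. These ranges overlapped almost throughout. The means were 121 ± 21.8 and 109 ± 17.5 CPM (SD, n = 4 each), a log2 fold change of −0.15 ± 0.18 with an edgeR FDR of 0.605.

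**Figure D1:**
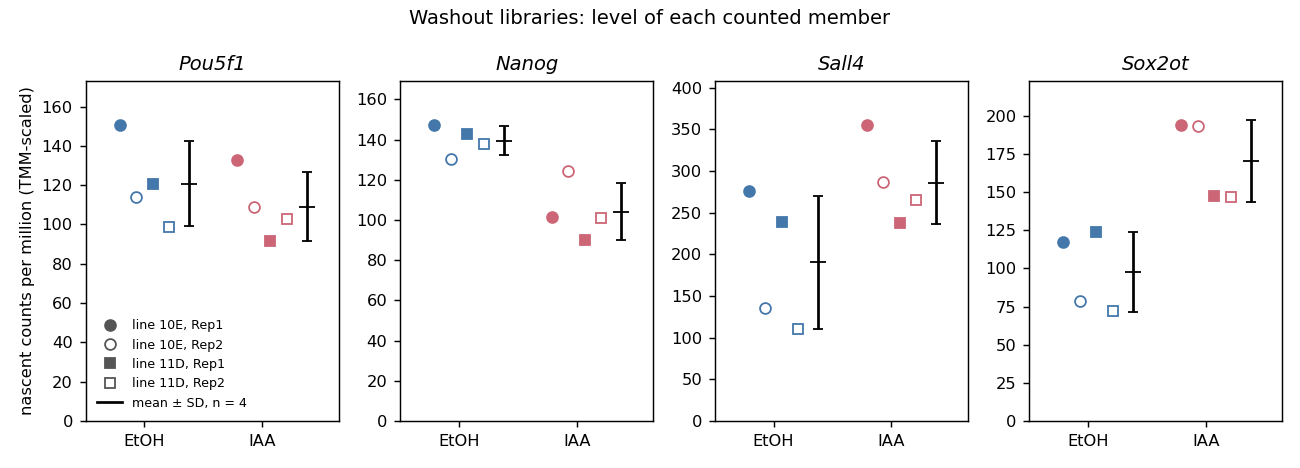
Level of each counted member in the 8 washout libraries, in TMM-scaled CPM (vertical axis, from 0) by treatment; circles are line 10E, squares line 11D, filled symbols Rep1, open symbols Rep2, and bars the mean ± SD of 4 libraries. Sox2ot and Nanog have no overlap between treatments, and the open EtOH symbols of Sall4 sit at 136 and 111 CPM, below all its other libraries.

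In the authors' deposited table of the washout the values were of like size: 0.80 ± 0.23 (SE) for Sox2ot with an adjusted p of 0.00656, −0.42 ± 0.18 for Nanog with 0.0865, 0.59 ± 0.28 for Sall4 with 0.136 and −0.14 ± 0.19 for Pou5f1 with 0.675. Of all genes tested in the authors' deposited table, 8.96% were called positive and 7.05% negative. Sox2 has a mean of 0 and no test there.

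Per kilobase of gene body, Pou5f1 stood highest in EtOH libraries at 25.4 ± 4.58 CPM per kb, followed by Nanog at 19.5 ± 1.01 and Sall4 at 9.72 ± 4.07, with Sox2ot at 0.169 ± 0.0454 (SD, n = 4 each). These levels ranked 174, 224, 510 and 12213 among the 15110 tested genes. In IAA libraries the levels were 22.9 ± 3.68, 14.6 ± 2.01, 14.6 ± 2.55 and 0.295 ± 0.0463 CPM per kb. Pou5f1 lay above Nanog in 8 of 8 libraries, although the ranges of the 2 genes over all libraries overlapped, and Nanog lay above Sall4 in 7 of 8 libraries, also with overlapping ranges. Sox2ot lay below Sall4 in all 8 without overlap. The 4 counted members had 516 to 4362 read pairs in a library, a counting error of 1.51% to 4.40%, beside a coefficient of variation of their CPM between libraries of a treatment of 5.16% (Nanog in EtOH) to 41.8% (Sall4 in EtOH).

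The lines can be read separately, since both treatments exist in each. In line 10E Sox2ot was higher after IAA by 0.99 ± 0.29 on the log2 scale (edgeR FDR 0.0383, 2 libraries against 2), where 18.3% of all genes were called. This call was lost without the EtOH Rep2 (FDR 0.197), IAA Rep1 (FDR 0.111) or IAA Rep2 library (FDR 0.155) of the line. In line 11D, where 2.61% were called, it stood at 0.59 ± 0.28 (FDR 0.294). Nanog stood at −0.30 ± 0.21 in 10E (FDR 0.334) and −0.55 ± 0.21 in 11D (FDR 0.19), Sall4 at 0.64 ± 0.39 (FDR 0.273) and 0.52 ± 0.39 (FDR 0.521), and Pou5f1 at −0.13 ± 0.23 (FDR 0.727) and −0.17 ± 0.23 (FDR 0.743). Every member thus kept its sign in both lines. The difference between the lines (10E minus 11D) was 0.39 ± 0.40 for Sox2ot, 0.26 ± 0.30 for Nanog, 0.12 ± 0.56 for Sall4 and 0.04 ± 0.33 for Pou5f1, with edgeR FDR of 0.66 or more for each. edgeR called 0.0% of genes in that interaction (2250 at an unadjusted p under 0.05), and DESeq2 called 104 positive and 31 negative genes.

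The replicate number separated the EtOH libraries, a comparison chosen after the counts were seen. Sall4 was lower in the 2 EtOH libraries numbered Rep2 than in the 2 numbered Rep1 by a log2 value of −1.06 ± 0.24 (edgeR FDR 0.131), and Sox2ot stood at −0.68 ± 0.23 (FDR 0.217), Pou5f1 at −0.35 ± 0.24 and Nanog at −0.11 ± 0.20. No gene passed there (0.0% called by edgeR, 2390 at an unadjusted p under 0.05). With Rep1 libraries only, IAA against EtOH gave 0.20 for Sall4, 0.50 for Sox2ot, −0.60 for Nanog and −0.28 for Pou5f1. With Rep2 libraries only it gave 1.19, 1.21, −0.22 and 0.029. None of these passed, where 9.94% of all genes were called with Rep1 libraries only and 0.527% with Rep2 libraries only, each at 2 libraries against 2. The change of Sall4 was 0.99 ± 0.29 larger in Rep2 than in Rep1 libraries (interaction, edgeR FDR 0.493), where 0.0% of genes were called and 1340 had an unadjusted p under 0.05. The other members stood at 0.68 ± 0.31 (Sox2ot), 0.34 ± 0.29 (Nanog) and 0.29 ± 0.30 (Pou5f1) in that interaction, with FDR of 0.576 or more.

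**Figure D2:**
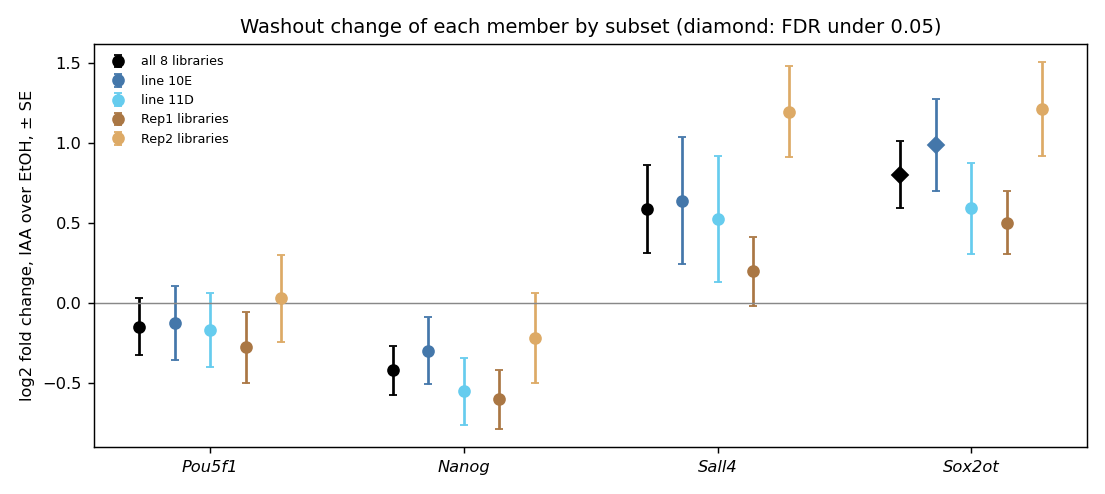
Log2 fold change of IAA over EtOH with its SE (vertical axis) for each counted member, over all 8 libraries, within each line and within each replicate number; diamonds mark FDR under 0.05. Sall4 and Sox2ot stand at 1.19 and 1.21 in the Rep2 libraries and at 0.20 and 0.50 in the Rep1 libraries, while lines 10E and 11D lie closer together.

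The choice of scaling moved all members together. With library totals only the median log2 fold change of all tested genes was −0.66, against −0.05 after TMM scaling. Nanog then stood at −1.05 (edgeR FDR 0.000403) and Pou5f1 at −0.77 (FDR 0.0036), both past the threshold, with Sox2ot at 0.18 (FDR 0.385) and Sall4 at −0.017 (FDR 0.955). Relative to that median, Sox2ot stood at 0.85 under both scalings, Sall4 at 0.64 and 0.63, Nanog at −0.39 and −0.37, and Pou5f1 at −0.10 and −0.10.

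Ratios of counts between members within a library do not depend on the scaling. They are given without a test, since they were chosen after the counts were seen. The counts of Sall4 were 1.84 and 1.19 times those of Pou5f1 in the EtOH libraries of 10E (Rep1, Rep2) and 1.99 and 1.12 times in 11D. In the IAA libraries the ratios were 2.67 and 2.63 in 10E and 2.60 and 2.58 in 11D. All 4 IAA ratios lay above all EtOH ratios. The SD of the log2 ratio between IAA libraries was 0.022, under the counting error of 0.056 to 0.065 for a single library, so the closeness of the IAA ratios cannot be read as a result. Sox2ot counts were 0.523 to 0.866 times those of Nanog in EtOH and 1.46 to 1.91 times in IAA libraries, which is a mean log2 difference of 1.26, the largest of the 6 pairs. The ratios of Sox2ot to Pou5f1 and of Sall4 to Nanog also did not overlap, with log2 differences of 0.97 and 1.10. The ratios of Nanog to Pou5f1 and of Sox2ot to Sall4 overlapped, with log2 differences of −0.29 and 0.16. For comparison, the count ratio to Pou5f1 lay above all EtOH libraries in every IAA library for 14.2% of the other tested genes, and the ratio to Nanog for 28.0%.

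**Figure D3:**
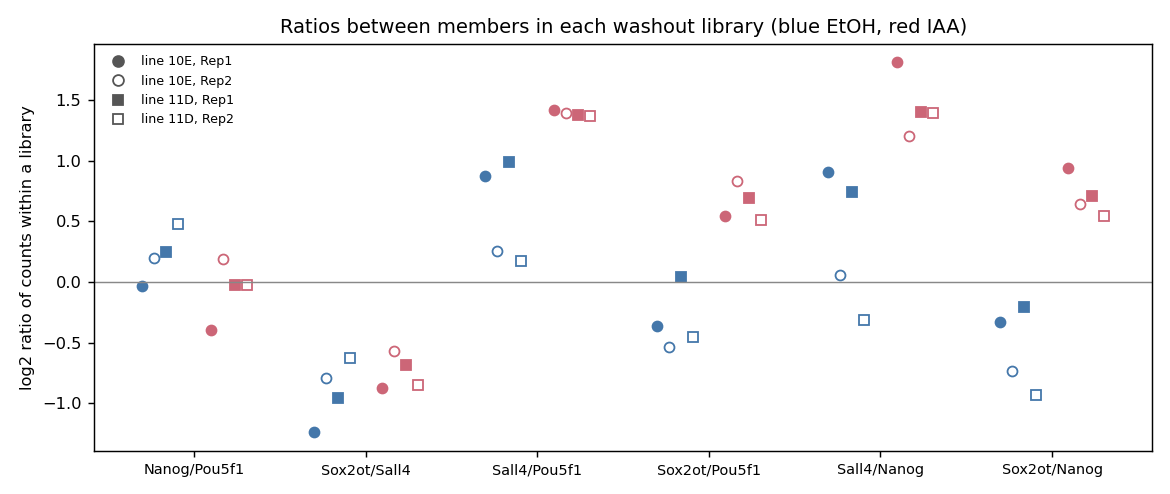
Log2 ratio of the counts of a pair of members within each washout library (vertical axis) for the 6 pairs; blue is EtOH, red IAA, circles line 10E, squares line 11D, filled Rep1, open Rep2. The 4 IAA ratios of Sall4 to Pou5f1 lie between 1.37 and 1.42, above every EtOH ratio, while Nanog to Pou5f1 and Sox2ot to Sall4 overlap.

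Across the 8 libraries the genes most like each member in log2 CPM were Nphp4, Acads and Pkm for Pou5f1 (Pearson r of 0.993, 0.973 and 0.971), Trappc9 and Dhrs3 for Nanog (0.991 and 0.981), Capns1, Snrnp40 and Ppfia1 for Sall4 (0.994 for each) and Ipo5, Ipmk and Rrn3 for Sox2ot (0.996, 0.992 and 0.991). They were taken from 8784 genes with a mean of at least 10 CPM. Among the members, Sox2ot and Sall4 had r of 0.93 and Sox2ot and Nanog r of −0.55. These are descriptions over 8 libraries that share treatment, line and scaling.

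The time course follows the members while SPT16 is being lost. The sources used here do not say which groups each table compares or in which direction, so values are positive or negative as signed in the authors' deposited tables. These are log2 fold changes shrunken toward 0, given with their SE, and no value per library can be shown. Nanog at 12 h was the only member called at any time. In the authors' deposited 12 h table it stood at −0.77 ± 0.34 (adjusted p = 0.0284), with 8.76% of genes lower, while 20.7% of all genes were called, 8.58% positive and 12.1% negative. A stricter threshold of 0.01 removed this call. Sox2 stood at −0.47 ± 0.44 (adjusted p = 0.237), Sall4 at −0.07 ± 0.25 (adjusted p = 0.864) and Pou5f1 at 0.12 ± 0.37 (adjusted p = 0.777), by the authors' deposited table. Whether Nanog differed from the other members at 12 h was not tested.

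At 6 h, when 3.1% of genes were called, the authors' deposited table gave −0.14 ± 0.20 for Nanog (adjusted p = 0.526), −0.08 ± 0.21 for Sox2 (0.649), −0.01 ± 0.19 for Pou5f1 (0.953) and 0.20 ± 0.23 for Sall4 (0.384). At 3 h, when 0.577% were called, it gave 0.40 ± 0.36 for Pou5f1 with an adjusted p of 0.211, above 96.1% of genes, and 0.04 to 0.07 for Sox2, Nanog and Sall4 with adjusted p from 0.68 to 0.802. At 0 h, when 0.376% were called, the 4 members had an adjusted p near 1 in the authors' deposited table. Their values there were shrunken almost to 0 (−0.00091 for Nanog, SE of 0.0014 to 0.0016), so they do not show that the members were equal. The authors' unadjusted p at 0 h was 0.0427 for Nanog, 0.06 for Pou5f1, 0.134 for Sall4 and 0.592 for Sox2. Only 0.63% of genes had a lower value than Nanog. The mean normalised counts behind the fold changes, the authors' own, were 8453 to 16555 for Nanog, 6766 to 10433 for Sall4, 5285 to 7741 for Pou5f1 and 2697 to 3981 for Sox2 over the 4 tables.

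Transcripts upstream of promoters (PROMPTs) were listed for 4 of the 5 genes, without Sall4, and that of Sox2ot had a mean count of 0 at every time. None of the members' PROMPTs was called at 0, 3, 6 or 12 h, when the authors' deposited tables called 0.00821%, 0.0%, 0.122% and 5.05% of PROMPTs. At 12 h the PROMPT of Pou5f1 stood at −1.10 ± 0.67 (adjusted p = 0.116), that of Nanog at 0.33 ± 0.34 (adjusted p = 0.531) and that of Sox2 at 0.14 ± 0.41 (adjusted p = 0.845), by the authors' deposited table. Their mean counts at 12 h were 18.4, 41.3 and 18.4, far below those of the genes. Nanog and its PROMPT had opposite signs at 12 h, and the difference between them was not tested.

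**Figure D4:**
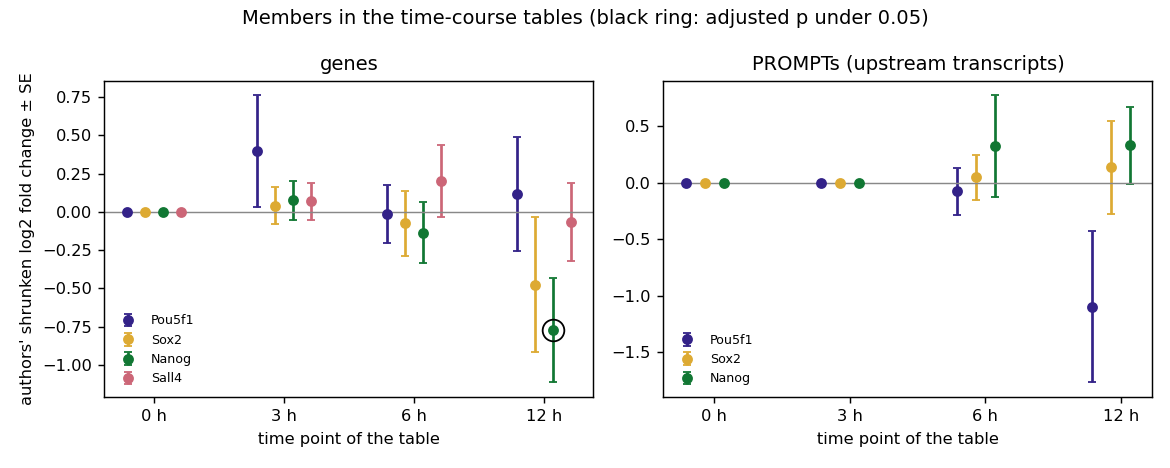
Shrunken log2 fold change with its SE from the authors' tables (vertical axis) at 0, 3, 6 and 12 h for the member genes and for their PROMPTs; a black ring marks an adjusted p under 0.05. Nanog at 12 h (−0.77) is the ringed point, and the Pou5f1 PROMPT at 12 h (−1.10) has the widest error.

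The nearest tested genes on either side of each member are given beside it. Some lie far off, such as Zfp64 at 125 kb and H2-D1 at 239 kb, so they cannot show whether a locus moved as a whole. Tcf19, which lies 1.96 kb beyond the end of Pou5f1 on the opposite strand and encodes a PHD finger protein, stood at 1.46 ± 0.37 at 6 h (adjusted p = 0.00143) and 1.81 ± 0.41 at 12 h (adjusted p = 4.3e-05), by the authors' deposited table, where Pou5f1 was not called. Cchcr1, the next gene, stood at 0.10 (adjusted p = 0.779) at 12 h in the authors' deposited table. Slc2a3, a glucose transporter gene 13.2 kb beyond Nanog, stood at −0.03 at 12 h (adjusted p = 0.933), and Dppa3, a germ cell and naive-state gene 77.2 kb before it, at 0.35 (adjusted p = 0.343), by the authors' deposited table. Dppa3 rests on a mean count of 8.78 at 12 h, so its value says little. Atp9a, 5.92 kb beyond Sall4, stood at 0.06 (adjusted p = 0.889), whereas Zfp64, 125 kb upstream of it, was called at −0.67 ± 0.24 (adjusted p = 0.0127), by the authors' deposited table. Dnajc19, 22.9 kb from Sox2ot, was called at 0.96 ± 0.40 at 12 h (adjusted p = 0.0206), and H2-D1, 239 kb from Pou5f1, at 1.55 ± 0.55 (adjusted p = 0.00535), by the authors' deposited table. Of the 16 genes nearest to the members, 10 had a test at 12 h and 4 were called in the authors' deposited table, where 20.7% of all genes were called. In the washout none of the 16 passed, against 8.83% of all genes called higher and 7.6% lower. Slc2a3 stood at 0.11 ± 0.21, Atp9a at 0.25 ± 0.15, Zfp64 at −0.20 ± 0.18, Tcf19 at 0.25 ± 0.31, Cchcr1 at −0.30 ± 0.16 and Dnajc19 at 0.32 ± 0.22 (log2 fold change ± SE).

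The regulators that work beside the core in naive cells were largely negative at 12 h. Of 13 naive network regulators 7 were called negative and 0 positive in the authors' deposited table, with a median of −0.62 against 0.01 for all genes and 12.1% of genes negative. Esrrb, an orphan nuclear receptor, stood at −2.05 ± 0.35 and Zfp42 (Rex1), a zinc finger marker of the naive state, at −1.85 ± 0.25. Zfp42 was already called negative at 6 h (−0.83 ± 0.21, adjusted p = 0.00221), by the authors' deposited table. It was the only 1 of the 13 called then, when 3.1% of all genes were called. The T-box factor Tbx3 stood at −1.15, the nuclear receptor Nr5a2 at −1.13, Prdm14 at −1.07 and Klf5 at −0.70 in the authors' deposited table, each called, and Tfcp2l1 was the last of the 7 at −0.62. Nanog, at −0.77, lay between the called members of this list, and the list was chosen with these results known. After washout 0 of the 13 were called lower and 1 was called higher, Stat3, the transducer of LIF, from 70.7 ± 25.1 to 133 ± 31.4 CPM (SD, n = 4 each, log2 fold change 0.91 ± 0.26, edgeR FDR 0.0314). The Stat3 call was lost without 10E EtOH Rep2, 10E IAA Rep1, 10E IAA Rep2 or 11D EtOH Rep2 (FDR up to 0.0991). After TMM scaling Esrrb stood at −0.26 ± 0.24 and Zfp42 at −0.09 ± 0.17 in the washout, neither past the test. With library totals only, 9 of the 13 were called lower and 0 higher, among them Esrrb (−0.86, edgeR FDR 0.00582) and Zfp42 (−0.68, edgeR FDR 0.0127), beside the shift of the median of all genes given above.

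Of 24 target genes of the core factors 8 were called negative and 1 positive at 12 h in the authors' deposited table, against 12.1% and 8.58% of all genes, with a median of −0.30 against 0.01. The negative ones include Trim71, an RNA-binding protein of stem cells (−1.46 ± 0.35), the DNA demethylation enzymes Tet2 (−1.37 ± 0.31) and Tet1 (−1.14 ± 0.26), the Polycomb partner Jarid2 (−1.24 ± 0.32), the adhesion gene Jam2 (−1.19 ± 0.27) and Mybl2 (−1.02 ± 0.22). Fgf4, a growth factor gene with a known Oct4 and Sox2 enhancer, stood at −0.89 ± 0.31 (adjusted p = 0.00728) and Fbxo15 at −0.91 in the authors' deposited table, both called. Lefty1, an inhibitor of Nodal, was the positive one, at 2.75 ± 0.68. It was already called positive at 6 h (1.55 ± 0.43, adjusted p = 0.00395), by the authors' deposited table. After washout, 1 of the 24 was called lower and 1 higher, against 7.6% and 8.83% of all genes. Fgf4 fell from 116 ± 27.3 CPM in EtOH to 50.05 ± 6.85 CPM in IAA libraries (SD, n = 4 each, log2 fold change −1.22 ± 0.19, edgeR FDR 0.00192). Dnmt3l, a cofactor of DNA methylation, rose from 33.7 ± 4.41 to 72.1 ± 22.1 CPM (1.09 ± 0.22, edgeR FDR 0.00672). With line as a block 2 of the 24 were called higher, Lin28a beside Dnmt3l, Lin28a being named after its values were seen. With library totals only, 11 of the 24 were called lower and 0 higher.

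Partner complexes of the core factors (among them Mediator, cohesin, p300, chromatin remodellers and NuRD) had 9 of 20 genes called negative and 0 positive at 12 h in the authors' deposited table, against 12.1% and 8.58% of all genes, with a median of −0.33 against 0.01. Those called include the NuRD subunit Gatad2b (−0.92 ± 0.29), the Mediator subunit Med1 (−0.91 ± 0.23) and the NuRD subunit Mta1 (−0.88 ± 0.22), with Gatad2a (−0.85) and Kdm1a (−0.71). The acetyltransferase Ep300 stood at −0.64 ± 0.22 (adjusted p = 0.0101), by the authors' deposited table. After washout 6 of 20 were called higher and 0 lower, against 8.83% and 7.6% of all genes, with a median of 0.23 against −0.05 for all genes. The remodeller Chd4 rose from 88.7 ± 6.94 to 199 ± 63.6 CPM (SD, n = 4 each, log2 fold change 1.17 ± 0.21, edgeR FDR 0.00373) and the corepressor Trim28 from 146 ± 27.8 to 295 ± 63.4 CPM (1.02 ± 0.20, FDR 0.00678). Mta2 (0.95), Med12 (0.88), Chd1 (0.78) and Ep300 (0.52) were also called. The Med12 call was lost without 10E IAA Rep1 (FDR 0.057) or 11D EtOH Rep1 (FDR 0.051), and the Ep300 call in 6 of 8 cases of a left-out library, all but 11D EtOH Rep1 and 11D IAA Rep2. With line as a block, which pairs the samples, the Ep300 call was also lost (FDR 0.0523). With library totals only, 1 of the 20 was called higher and 8 lower. Ep300 was called negative at 12 h in the authors' deposited table and higher after washout, but with library totals only its washout value was −0.094. The other genes called higher after washout were not called at 12 h in the authors' deposited table. They stood there at 0.58 (Mta2), 0.32 (Chd4), 0.30 (Med12), 0.07 (Trim28) and −0.27 (Chd1). Med12 was called positive at 6 h (1.06 ± 0.37, adjusted p = 0.0193), by the authors' deposited table. In the same washout libraries 2 of 4 tested primitive endoderm markers (Dab2 at 1.93 and Pdgfra at 1.14 on the log2 scale) and 1 of 5 tested formative and primed markers (Dnmt3b at 0.62) were called higher and none lower. The other tested markers of these lists stood at −0.12 (Gata4), 0.28 (Gata6), 0.39 (Otx2), −0.09 (Dnmt3a), −0.05 (Sall2) and 1.22 (Lef1), none past the test. With library totals only Dab2 kept its call (1.29), while Pdgfra (0.55, edgeR FDR 0.165) and Dnmt3b (0.0075, edgeR FDR 0.975) lost theirs. The Pdgfra call was lost without any of 5 libraries (all but 10E IAA Rep2, 11D EtOH Rep1 and 11D IAA Rep2) and the Dnmt3b call without 10E IAA Rep1 or 11D EtOH Rep1. At 12 h in the authors' deposited table, 2 of 7 tested endoderm markers were called positive, again Dab2 (1.72 ± 0.51) and Pdgfra (1.03 ± 0.46). So were 2 of 7 formative and primed markers (Pou3f1, Sall2) and 2 of 4 neural markers (Nes, Neurog2), against 8.58% of all genes. None of these lists had a negative call, and those of trophoblast, mesoderm and fibroblasts had 0 calls. Dab2, Pdgfra and Neurog2 had low mean counts, 34.1, 48.3 and 2.51. The part of these markers in the list results was not tested.

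Among 9 relatives of the members, 3 were called positive and 1 negative at 12 h in the authors' deposited table, against 8.58% and 12.1% of all genes, so the 1 negative call is near the background. Sox3, a close relative of Sox2, stood at 3.13 ± 1.01 (adjusted p = 0.00179), the POU factor Pou3f1 at 1.80 ± 0.82 (adjusted p = 0.0144) and Sall2 at 1.29 ± 0.44 (adjusted p = 0.00483). Sox3 and Pou3f1 rest on low mean counts at 12 h, 23.7 and 18.5, beside 210 for Sall2 and 3199 for Sox2. Sall2 was already positive at 6 h (1.24, adjusted p = 0.0044), and Pou2f1, which encodes Oct1, was negative at 12 h (−1.14 ± 0.29, adjusted p = 0.000256), by the authors' deposited table. In the washout none of the 6 relatives that could be tested passed. Sox3 and Pou3f1 were too low to be tested there, at 0.195 and 0.425 CPM on average in EtOH and 0.846 and 1.36 CPM in IAA libraries. Sox1 had 0 counts there and no test, but mean counts of 119 to 165 in the authors' deposited time-course tables.

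**Figure D5:**
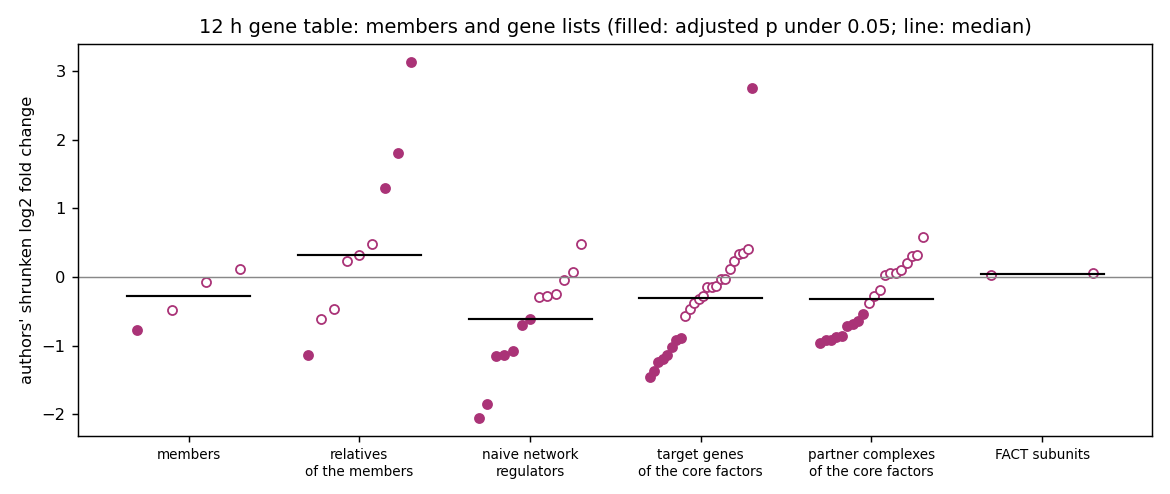
Shrunken log2 fold change at 12 h from the authors' table (vertical axis) of each tested gene, for the members and the gene lists; filled points have an adjusted p under 0.05 and the line is the median of the list. The called points of the naive network and of the partner complexes all lie below 0, while those of the relatives lie on both sides.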

How the data were processed

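TT-seq libraries of mouse embryonic stem cells were analysed from deposited tables. For the washout the authors deposited a table of raw counts (read pairs per gene), made with featureCounts 2.0.1 over whole gene bodies by gene name, on the reverse strand (option 2), per the file headers. Pairs in a stretch shared by 2 genes of the same strand count for neither. STAR, deepTools and the mm10 build appear in the submitters' processing notes. The time-course and washout comparison tables hold log2 fold changes with their SE, p-values with adjusted p-values, and mean counts, all deposited by the authors, and the washout table also a test score (statistic) deposited by them. Its column names are those of DESeq2, and the groups compared in the time-course tables are not given in the sources used here. The tables were normalised separately.

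Counts were tested with edgeR 4.0.16 in R 4.3.3 (TMM, filterByExpr, robust quasi-likelihood test, two-sided, Benjamini-Hochberg FDR of 0.05) over 15110 genes, without a block, and with DESeq2 1.42.0 as an alternative. The SE is the log2 fold change divided by the square root of F. The procedure was tested on simulated data. These held neither the shift of the 6 loci between treatments nor a difference between replicate numbers, so that test does not bear on either. Other scalings, filters, blocks and left-out libraries were tried. Line pairs the samples, since both treatments exist in each line. The labels do not pair replicate numbers. Deviations from the treatment mean in same-numbered libraries of a line had r of 0.42 and −0.55 in 10E and −0.34 and −0.089 in 11D (Rep1, Rep2). Nor do the labels name separate cultures for the replicates, and p-values then cover only the spread between libraries, which may be technical. Libraries of a treatment differed by more than sampling noise. The labels do not say which of Clone1 and Clone2 is 10E or 11D.

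The members and gene lists were chosen with earlier results of these data known. Named were the members, Supt16 and Ssrp1, list genes called at 12 h or in the washout (up to 6 per direction, by size), the nearest 2 tested genes on either side of each member, and the 3 genes most like each member. Items that fall under this rule but are withheld are not reported here. Genes named beyond this rule (Tfcp2l1, Fbxo15, Lin28a and the uncalled formative and endoderm markers) complete a count and were chosen after their values were seen. Enhancer and DHS tables were not used here. Motifs were searched with Python 3.11.15 in RefSeq promoter windows.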

Additional observations from a re-analysis of the deposited data

How the results depend on the processing

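For IAA against EtOH in the washout, 13 of 18 alternatives kept the Sox2ot call, 16 of 18 left Nanog uncalled, 16 of 18 left Pou5f1 uncalled with its sign, and 17 of 18 left Sall4 uncalled with its sign. With upper-quartile scaling Nanog passed at −0.48 (FDR 0.0411). With library totals only, Nanog (−1.05) and Pou5f1 (−0.77) passed, Sox2ot (0.18) did not, Sall4 (−0.017) changed sign, and all genes had 433 higher and 7422 lower calls in place of 1334 and 1149, which follows the shift of the median. In line 10E that scaling gave −1.05 for Nanog and −0.86 for Pou5f1, both called, 0.25 for Sox2ot, no longer called, and −0.075 for Sall4, and in line 11D −1.05 for Nanog, called. In the interaction of line and treatment it gave −0.20 for Pou5f1, −0.0046 for Nanog and −0.12 for Sall4, opposite in sign to the main values, and in that of replicate number −0.023 for Pou5f1. It also turned the sign of Atp9a (−0.36), Dnajc19 (−0.27), Ep300 (−0.094), Slc2a3 (−0.53), Ssrp1 (−0.42), Supt16 (−0.10) and Tcf19 (−0.37).

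With line and replicate number as a block, Sox2ot stood at 0.83 (FDR 0.0392), Nanog at −0.43, Sall4 at 0.67 and Pou5f1 at −0.14, with no member's call changed and 829 higher and 638 lower genes in all. The replicate numbers are not given as pairs, and with line alone as a block no member's call changed. With replicate number as a block in the interaction, Sox2ot stood at 0.38. Leaving out 1 library gave 0.68 to 0.93 for Sox2ot, past the threshold in 6 of 8 cases. Within line 10E, where the lone library is taken to vary like the others, it gave 0.72 to 1.30 for Sox2ot, with 1 of 4 called, 0.21 to 1.24 for Sall4 and −0.32 to 0.088 for Pou5f1, and within line 11D 0.25 to 1.03 for Sox2ot, 0.068 to 1.18 for Sall4 and −0.31 to −0.021 for Pou5f1, none called. In each line the lowest values of Sox2ot and Sall4 came without its EtOH Rep2 library and the highest without its EtOH Rep1 library. Over both lines Pou5f1 ran from −0.25 to −0.027 without a call. In the interaction of lines it gave −0.14 to 0.26 for Pou5f1, −0.54 to 0.72 for Sall4 and −0.046 to 0.73 for Sox2ot. Slc2a3 ran from −0.0057 to 0.23 and Zfp42 from −0.16 to 0.0075, each changing sign without 10E IAA Rep1. Of Rep1 libraries only, chosen after the counts were seen, Sox2ot was at 0.50, uncalled, and Slc2a3 at −0.069. Of Rep2 only, Sox2ot was at 1.21, uncalled, Pou5f1 at 0.029, Esrrb at 0.31, Zfp42 at 0.042, Zfp64 at 0.17 and the log2 difference of the Sox2ot to Sall4 ratio at −0.0033. An adjusted p under 0.01 left 0 members called at 12 h. Nanog passed there with an adjusted p of 0.0243 over genes whose mean count reached 50 and 0.0321 over all p-values. The causes were not tested. The time-course tables give no library values, so no library could be left out there.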
